A study of Mus musculus with 18 samples.

Results

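Heat shock protein and chaperonin genes were followed through the differentiation of MEL cells, a mouse erythroleukemia line that dimethyl sulfoxide (DMSO) drives to produce hemoglobin. Genes were chosen by symbol: every gene named Dnaja, Dnajb or Dnajc with a number, every Hsp90, Hspa, Hspb, Hspd, Hspe or Hsph gene, the Cct2 to Cct8 genes, and Tcp1, Sdf2l1 and Hsf1. The rule used no measured value and gave 85 of the 26599 entries of the RNA table, which carry 84 symbols because Hspa14 is listed under a pair of Ensembl IDs. Total RNA was measured by stranded RNA-seq in cells before treatment (day 0, 2 libraries) and after 5 days in 2% DMSO (day 5, 2 libraries). The libraries of each day are biological replicates of this 1 cell line, per the labels, and at least 80-90% of the treated cells were positive for hemoglobin by colour and benzidine stain. The day 0 cells are therefore untreated MEL cells and the day 5 cells possibly a mixture in which a minority lacked hemoglobin. All groups share the erythroleukemic origin of the line, and no untreated culture of day 5 was analysed here, so DMSO and time in culture cannot be told apart.

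Molecular chaperones help other proteins reach and keep their folded state. Hsp70 proteins bind short exposed stretches of a client in a cycle driven by ATP, J-domain proteins (the DNAJ genes) deliver clients and start ATP hydrolysis, and exchange factors such as the Hsp110 proteins reset the cycle. Hsp90 acts later on kinases, receptors and other signalling clients, the ring-shaped chaperonins (CCT in the cytosol, Hspd1 with its lid Hspe1 in mitochondria) enclose a folding chain, and small heat shock proteins hold unfolded chains without ATP. Heat shock factor 1 (Hsf1) binds heat shock elements in front of many of these genes under protein stress, and a separate endoplasmic reticulum (ER) stress element drives the ER-resident chaperones. Red cell precursors fill with globin while they shed most of their organelles, and Hsp70 is known in that lineage for protecting the transcription factor GATA1.

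Promoter windows are shown for 3 members that fell and that hold 1 of these elements, since they let the elements be seen beside the values that follow. The windows are from RefSeq on GRCm38.p6 and run from 250 bases before to 50 bases after an annotated start, 5′ to 3′ on the gene's strand. They were found for 68 of the 84 symbols. The search was for the heat shock element GAANNTTCNNGAA on both strands, which reads TTCNNGAANNTTC on the other strand, and for the ER stress element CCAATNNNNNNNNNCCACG on both strands, which reads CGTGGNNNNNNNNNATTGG on the other. Capitals mark the matches. The window of Hspe1 is chr1:55087898-55088197 on the plus strand, that of Hsph1 is chr5:149636266-149636565 on the minus strand, and that of Hsp90b1 is chr10:86705395-86705694 on the minus strand.
Hspe1: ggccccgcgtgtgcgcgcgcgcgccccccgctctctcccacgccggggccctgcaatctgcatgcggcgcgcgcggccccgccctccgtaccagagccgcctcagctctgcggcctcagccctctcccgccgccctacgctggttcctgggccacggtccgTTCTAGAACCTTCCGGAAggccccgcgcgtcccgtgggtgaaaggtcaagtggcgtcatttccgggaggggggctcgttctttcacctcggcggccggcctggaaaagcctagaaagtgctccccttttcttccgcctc
Hsph1: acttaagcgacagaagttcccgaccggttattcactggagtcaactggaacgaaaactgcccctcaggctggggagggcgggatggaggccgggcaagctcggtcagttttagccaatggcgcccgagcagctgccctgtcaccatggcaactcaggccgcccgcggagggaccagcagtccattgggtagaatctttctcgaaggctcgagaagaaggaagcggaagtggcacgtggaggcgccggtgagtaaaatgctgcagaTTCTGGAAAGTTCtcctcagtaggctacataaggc
Hsp90b1: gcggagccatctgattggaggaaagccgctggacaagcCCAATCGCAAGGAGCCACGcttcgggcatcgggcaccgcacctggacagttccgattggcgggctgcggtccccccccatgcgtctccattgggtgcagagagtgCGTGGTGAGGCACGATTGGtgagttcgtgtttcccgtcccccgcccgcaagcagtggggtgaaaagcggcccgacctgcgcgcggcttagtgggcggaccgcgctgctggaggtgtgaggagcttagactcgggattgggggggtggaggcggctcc

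The capitals in Hspe1 are a run of 18 bases that holds the heat shock element on each strand, overlapping, 89 to 72 bases before the start. Hspd1, the neighbour of Hspe1 on chromosome 1, lies on the opposite strand, and the same run, read there as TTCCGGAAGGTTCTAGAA, lies 144 to 127 bases before an annotated Hspd1 start (window chr1:55087883-55088182). Both genes of the mitochondrial chaperonin thus share 1 stretch of DNA, chr1:55088059-55088076, and are not separate matches. In Hsph1 the match lies 15 to 27 bases after the start of the printed window, and 36 to 48 bases after another annotated start. Dnajb6 holds GAATCTTCCGGAA 46 to 34 bases before a start. The heat shock element was found in 4 of the 68 member genes (5.88%) and in 179 of all 27025 genes with a window (0.662%; 0.603% of 32851 windows). The ER stress element was found in 3 members (4.41%), Hsp90b1, Hspa5 and Dnajc3, and in 0.137% of all genes (0.119% of windows). Hsp90b1 carries it on each strand, and Hspa5 holds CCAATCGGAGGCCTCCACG 65 to 47 bases before its start. A match describes letters only, and no binding was measured here. Hsp90aa1, Hsp90ab1, Hspa8 and Hspa9 are among the symbols not in the table of promoters.

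The RNA values are FPKM, fragments scaled to transcript length and to library size, which allow levels of different genes to be set side by side. Of the 85 entries, 66 reached 1 FPKM in at least 2 libraries and were tested, and 19 were not, 14 of which were listed at 0 (under 0.005 FPKM) in all 4 libraries. The test was limma on log2(FPKM + 1) over all 10736 genes that met the same minimum, with Benjamini-Hochberg adjustment, and "fell" or "rose" below means an adjusted p under 0.05. In this comparison 18.5% of all tested genes passed, 7.81% lower and 10.7% higher on day 5. Among the members 21 fell, 5 rose and 40 did not pass, and the 21 include Hspa12b, which passed the minimum through day 0 alone. At an unadjusted p under 0.05 the count was 36, where 38.6% of all tested genes passed. The groups did not overlap, with both day 5 libraries lower, for 37 members (27.0% of all tested genes) and with both higher for 18 (40.2% of all tested genes). The median log2 difference was -0.45 over the tested members and 0.15 over all tested genes. Quantile normalization moved these medians to -0.24 and 0.01. Many abundant chaperone genes have processed pseudogenes, and how shared reads were split is not stated. An FPKM is relative to its library, so fewer cells making a transcript, less of it per cell, and more RNA of other genes cannot be told apart.

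**Figure D1:**
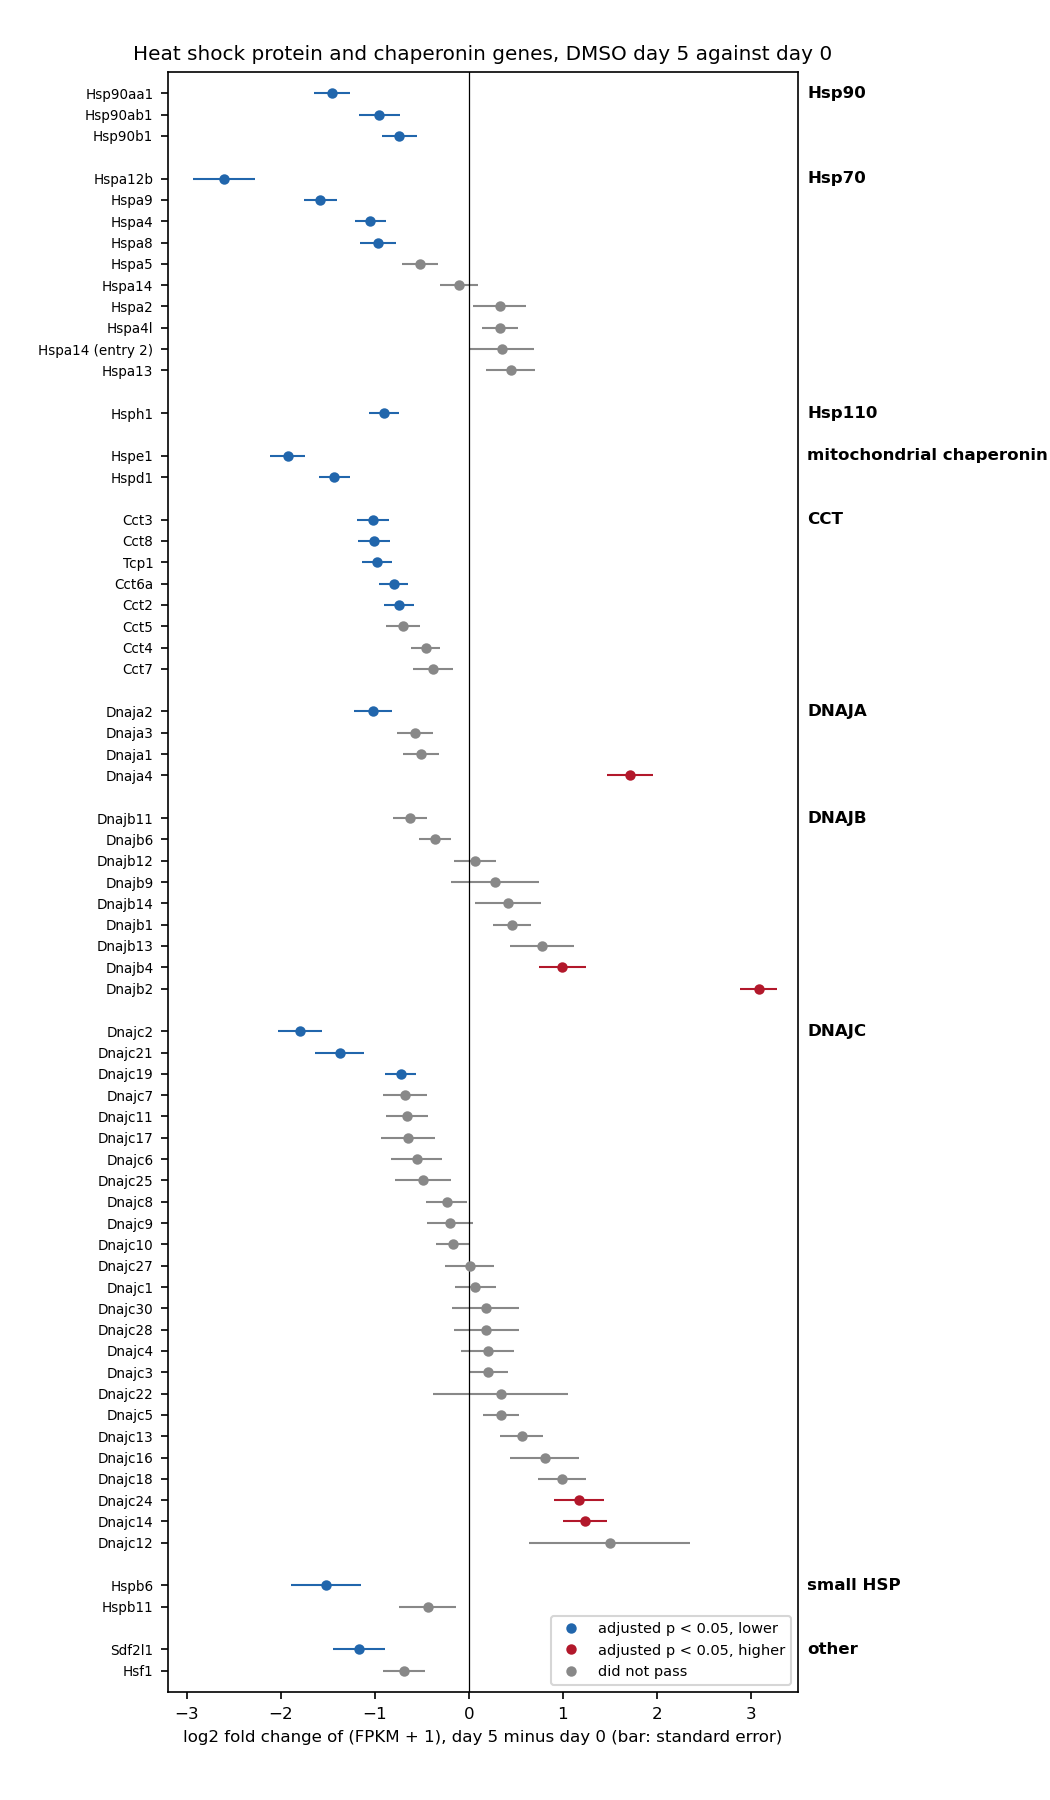
Log2 difference in FPKM + 1, day 5 minus day 0, with its standard error, for the 66 tested members arranged by family (2 libraries a day); colours mark those called lower, called higher and not called at an adjusted p under 0.05. The 3 Hsp90 genes, the mitochondrial chaperonin and the CCT subunits all lie below 0, while the DNAJ genes lie on both sides, with Dnajb2 farthest to the right at 3.08.

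Most of the members that fell were abundant ones. Of the 26 members with a mean of at least 100 FPKM, 19 fell (73.1%) and 0 rose by limma, and in 25 both day 5 libraries were below both day 0 libraries. Of all 1208 tested genes at that level 21.2% were lower and 9.27% higher, and in 600 both day 5 libraries were below both day 0 libraries. The median difference of the 26 members was -0.96, against -0.25 over all genes at that level. The 40 tested members below 100 FPKM looked like other genes of that level: 2 were lower (5%, against 6.12%) and 5 were higher (12.5%, against 10.9%), with medians of 0.20 and 0.21. The 2 lower members were Hspb6 and Hspa12b, the latter passing the minimum through day 0 alone. Summed over all members, FPKM were 19085 and 19974 on day 0 and 9804 and 10519 on day 5, a 1.92-fold lower mean. That sum made up 2.46% and 2.63% of the day 0 libraries and 1.24% and 1.35% of the day 5 libraries. The difference between the days exceeds the gap between the libraries of either day.

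**Figure D2:**
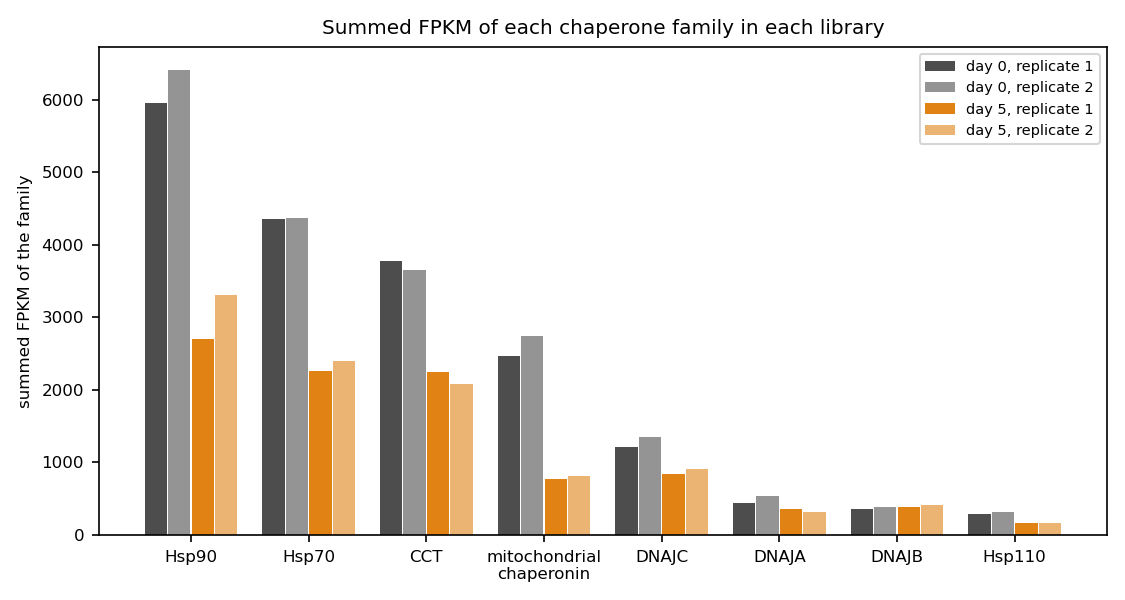
Bars give the summed FPKM of each chaperone family in each of the 4 libraries (linear axis from 0). The Hsp90 sum of 5957 and 6404 on day 0 is the tallest and lies at 2696 and 3308 on day 5, whereas the DNAJB sum stays between 352 and 407 in all 4 libraries.

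The Hsp90 genes fell, all 3 of 3, and their summed FPKM of 5957 and 6404 on day 0 was 2.06-fold lower on day 5, at 2696 and 3308. Hsp90aa1, the stress-inducible cytosolic form, stood at 1759.6 and 2117 FPKM on day 0 and at 663 and 745 on day 5, 2.75-fold lower (log2 difference -1.46 ± 0.19 SE, limma adjusted p = 0.0148). Hsp90ab1, the constitutive cytosolic form and the most abundant member, stood at 3156 and 3058 and then at 1396 and 1844 (1.92-fold lower, -0.95 ± 0.22, adjusted p = 0.0424). Hsp90b1, the ER form also called Grp94, went from 1042 and 1229 to 637 and 719 (1.67-fold lower, -0.74 ± 0.19, adjusted p = 0.0496). The days did not overlap for any of the 3, and day 5 replicate 2 was the higher day 5 library in each. Hsp90aa1 was 1.69 and 1.72 times as abundant as Hsp90b1 on day 0 and 1.04 times in both day 5 libraries. Hsp90ab1 ranked 24 and 19 among all genes on day 0 and 88 and 56 on day 5. The call for Hsp90b1 was lost under 5 of the 6 alternatives that keep all libraries and a filter (adjusted p up to 0.0804), and that for Hsp90ab1 under 3.

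Of the 14 Hsp70 entries 10 were tested: 4 fell, 0 rose by limma and 6 did not pass, with a median of -0.32. The 4 were Hspa12b, which rests on day 0 alone, and Hspa8, Hspa9 and Hspa4, which each averaged above 100 FPKM. Lower calls made up 7.81% of the whole tested set and 21.2% of its part at that level. Hspa8, the constitutive cytosolic Hsp70 (Hsc70), stood at 2979 and 2819 FPKM on day 0 and at 1421 and 1547 on day 5 (1.95-fold lower, -0.97 ± 0.19, adjusted p = 0.0304). Hspa9, the mitochondrial Hsp70 mortalin that pulls proteins through the inner membrane, went from 455 and 479 to 171 and 141 (2.99-fold lower, -1.58 ± 0.17, adjusted p = 0.0110). Hspa4, an Hsp110-type exchange factor despite its name, went from 233 and 273 to 123 and 119.99 (2.08-fold lower, -1.05 ± 0.17, adjusted p = 0.0206). In these 3 genes the libraries of a day lie close together and far from those of the other day. Hspa12b, a distant relative of Hsp70, stood at 4.68 and 5.55 on day 0 and was listed at 0 in both day 5 libraries. It passed the minimum through day 0 alone, so its adjusted p of 0.0139 adds nothing and no fold is given.

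Hspa5, the ER Hsp70 called BiP or Grp78, stood at 531 and 668 FPKM and then at 391 and 438, which did not overlap but did not pass (1.45-fold lower, -0.52 ± 0.19, adjusted p = 0.108). The cytosolic to mitochondrial ratio, Hspa8 over Hspa9, was 6.54 and 5.88 before treatment and 8.30 and 11.0 after it, while Hspa8 over Hspa5 was 5.61 and 4.22 and then 3.63 and 3.53. Among members chosen for naming after their values were seen, Hspa4l, a relative of Hspa4, stood at 21.8 and 20.4 on day 0 and at 27.0 and 26.5 on day 5 (0.33 ± 0.19, adjusted p = 0.262). Hspa13, a microsome-associated member, stood at 12.6 and 13.5 and then at 15.2 and 21.6 (0.44 ± 0.26, adjusted p = 0.258). Hspa14, a ribosome-associated Hsp70, overlapped between the days at 116, 88.3, 99.8 and 88.3 under its main entry. The stress-inducible pair Hspa1a and Hspa1b, near-identical genes between which reads are hard to assign, were at 0.207 and 0 FPKM on day 0 and 0 on day 5 for Hspa1a, and listed at 0 throughout for Hspa1b. Hsph1, the Hsp110 exchange factor Hsp105 whose promoter is printed above, stood at 283 and 323 on day 0 and at 159 and 164 on day 5 (1.88-fold lower, -0.90 ± 0.16, adjusted p = 0.0259). It did not pass under quantile normalization or without the mean-variance trend.

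Both genes of the mitochondrial chaperonin fell, and their summed FPKM showed the largest fold of all the family sums, 3.32-fold lower on day 5. Hspe1, the lid Hsp10, went from 1489.5 and 1802 FPKM on day 0 to 427 and 432 on day 5 (3.83-fold lower, -1.93 ± 0.18, adjusted p = 0.00838). Hspd1, the barrel Hsp60, went from 983 and 943 to 338 and 375 (2.70-fold lower, -1.43 ± 0.16, adjusted p = 0.0118). The libraries of each day lie close together for both genes, and the days are far apart. The 2 genes share the heat shock element shown above. Hspe1 over Hspd1 was 1.52 and 1.91 on day 0, against 1.26 and 1.15 on day 5. Whether the 2 genes moved by unequal amounts was not tested. Hspe1 ranked 78 and 54 among all genes on day 0 and 241 and 240 on day 5.

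The cytosolic chaperonin CCT, a ring of 8 different subunits known for folding actin and tubulin, was lower in every subunit in both day 5 libraries, and 5 of 8 subunits passed. All 8 had means above 100 FPKM. Of the 1208 tested genes at that level 21.2% were lower, and 600 had both day 5 libraries below both day 0 libraries. Cct3 stood at 584 and 535 FPKM on day 0 and at 255 and 297 on day 5 (2.03-fold lower, -1.02 ± 0.17, adjusted p = 0.0231). Cct8 went from 477 and 501 to 263 and 223 (2.01-fold lower), and Tcp1, the CCT1 subunit, from 445 and 461 to 246 and 214 (1.97-fold lower), with adjusted p of 0.0231 and 0.0230 by limma. Cct6a went from 362 and 335 to 194 and 206 (1.74-fold lower, adjusted p = 0.0311), and Cct2, the most abundant subunit, from 677 and 720.3 to 433 and 399 (1.68-fold lower, adjusted p = 0.0377). The other subunits had smaller differences and did not pass. Cct5 stood at 516 and 453 and then at 325 and 271 (adjusted p = 0.0536), Cct4 at 392 and 378 and then at 277 and 283 (0.0877), and Cct7 at 320.2 and 262 and then at 257 and 192 (0.247). The spread among subunits was of like size on both days: the coefficient of variation over the 8 was 25.2% and 30.6% before treatment and 25.4% and 26.1% after it. The median difference of the 8 was -0.77, and -0.50 after quantile normalization, under which Cct2, Cct6a and Cct8 did not pass. Cct2 and Cct6a were also lost without the mean-variance trend. Cct6b and Cct8l1, the remaining entries, were at or below 0.290 FPKM in all libraries.

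**Figure D3:**
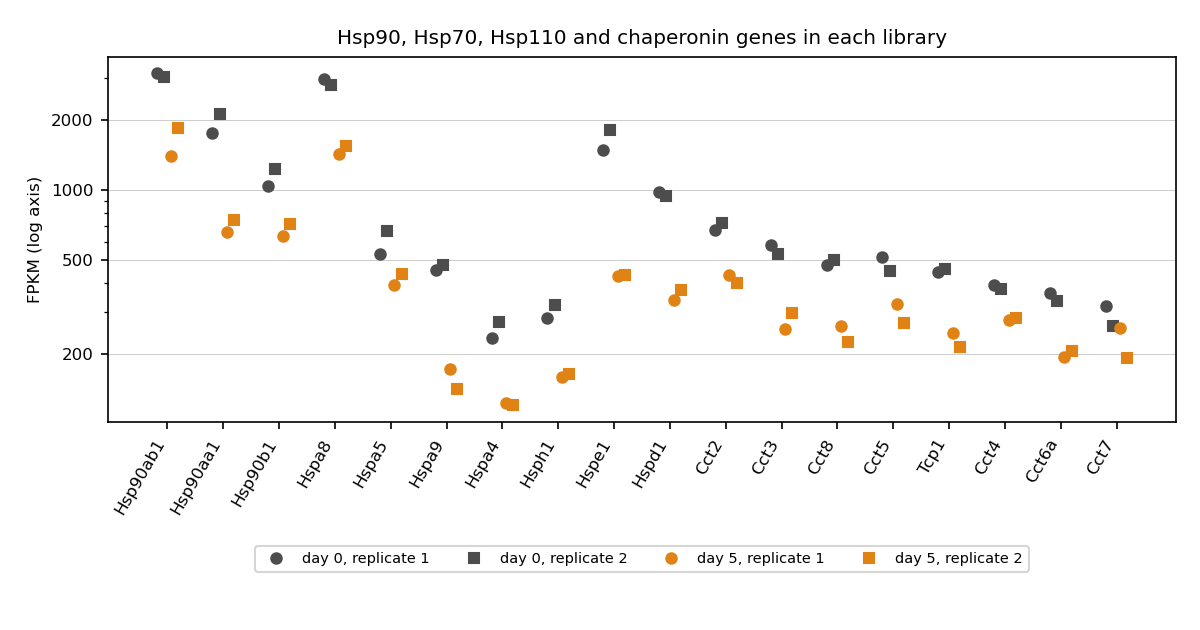
FPKM (log axis) in each library, 2 of day 0 and 2 of day 5, for the 3 Hsp90 genes, the abundant Hsp70 genes, Hsph1, the mitochondrial chaperonin and the 8 CCT subunits. Hspe1 shows the widest gap between the days among the abundant genes (1489.5 and 1802 against 427 and 432), while the CCT subunits shift down by smaller steps.

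Among the J-domain genes the calls went both ways. Of 45 entries 38 were tested, 4 fell (10.5%, against 7.81% of all tested genes) and 5 rose (13.2%, against 10.7%). Both shares lie near the background. Of the 28 tested members of all other families 17 fell (60.7%) and 0 rose by limma. The 17 include Hspa12b, which passed the minimum through day 0 alone. The difference between the families was not tested, and the DNAJ genes are mostly less abundant, which moves with the count of calls as given above. Their median difference was 0.12, and -0.09 after quantile normalization. The summed FPKM of all DNAJ genes were 2009 and 2269 on day 0 and 1585 and 1629 on day 5, and the Hsp70 sum exceeded it 2.17 and 1.93 times before treatment and 1.42 and 1.47 times after it.

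Dnajb2, a J protein that binds ubiquitin and is known from neurons as HSJ1, rose the most of all members. It stood at 7.86 and 7.10 FPKM on day 0 and at 73.5 and 68.0 on day 5 (9.46-fold higher, 3.08 ± 0.20, adjusted p = 0.00478). Its rank among all genes went from 7174 and 7161 to 1592 and 1728, and its share of the summed DNAJA and DNAJB values from 0.993% and 0.773% to 9.89% and 9.47%. Dnaja4, a cytosolic class A J protein, stood at 9.23 and 9.75 and then at 39.1 and 28.3 (3.55-fold higher, 1.71 ± 0.24, adjusted p = 0.0173). Dnajb4, a cytosolic relative of Dnajb1, stood at 17.9 and 18.3 and then at 44.8 and 30.6 (2.08-fold higher, 0.99 ± 0.25, adjusted p = 0.0493), a call that was lost under 4 of the 6 alternatives that keep all libraries and a filter. Day 5 replicate 1 was the higher library for both of the latter.

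The abundant class A and B genes did not rise. Dnaja2, a cytosolic partner of Hspa8, fell from 139.7 and 182 FPKM to 73.6 and 83.1 (2.06-fold lower, -1.02 ± 0.20, adjusted p = 0.0311), a call lost without the mean-variance trend. Dnaja1, the most abundant class A gene, stood at 234 and 286 and then at 199 and 166, and did not pass (-0.51 ± 0.19, adjusted p = 0.116). Dnajb6, a suppressor of aggregation, stood at 187 and 208 and then at 141 and 167 (-0.36 ± 0.17, adjusted p = 0.188). Dnajb11, the J protein partner of BiP in the ER, stood at 78.6 and 89.3 and then at 58.2 and 49.7 (-0.63 ± 0.18, adjusted p = 0.0663). Ratios within the classes differed between the days: Dnaja1 over Dnaja4 was 25.3 and 29.3 on day 0, against 5.09 and 5.88 on day 5, and Dnajb6 over Dnajb2 was 23.8 and 29.2 and then 1.92 and 2.45. Dnajb1, the main stress-inducible J protein, named after its values were seen, stood at 29.0 and 25.2 and then at 34.5 and 40.9 (0.46 ± 0.20, adjusted p = 0.157). Dnajb9, an ER J protein induced by unfolded proteins and likewise named afterwards, overlapped at 7.61, 8.96, 6.11 and 16.7, where day 5 replicate 2 alone was high. The 7 class B genes that did not pass ranged from -0.63 in Dnajb11 to 0.78 in Dnajb13.

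**Figure D4:**
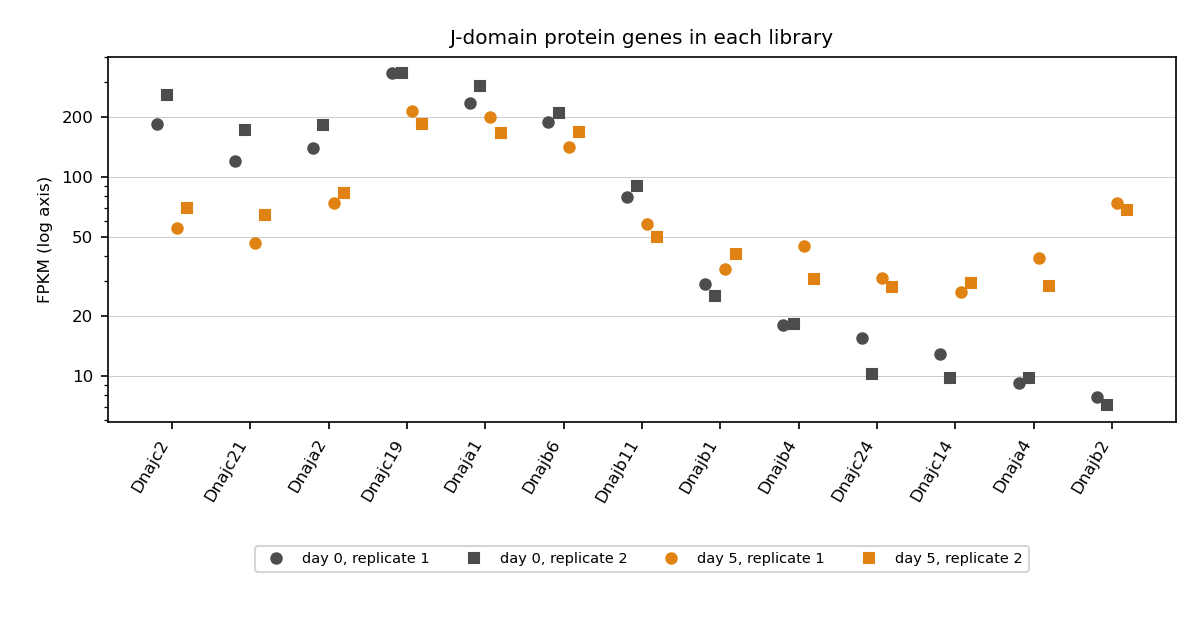
FPKM (log axis) in each library, 2 of day 0 and 2 of day 5, for J-domain genes. Dnajb2 lies at 7.86 and 7.10 FPKM on day 0 and at 73.5 and 68.0 on day 5, Dnaja4 and Dnajb4 also lie higher on day 5, and Dnajc2, Dnajc21 and Dnaja2 lie lower.

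Of the 28 class C genes, J proteins with specialised tasks, 25 were tested. Among these 3 fell (12%, against 7.81% of all tested genes) and 2 rose (8%, against 10.7%), shares near the background. Their median was 0.07, against 0.15 over all tested genes. Dnajc2, which with Hspa14 forms a complex on ribosomes, went from 183 and 258 FPKM to 55.1 and 69.6 (3.54-fold lower, -1.80 ± 0.24, adjusted p = 0.0148). Dnajc21, which acts in maturation of the large ribosomal subunit, went from 120.2 and 172 to 46.7 and 64.5 (2.62-fold lower, -1.37 ± 0.26, adjusted p = 0.0299). Dnajc19, part of the motor that drives import into mitochondria together with Hspa9, went from 329.7 and 330.1 to 215 and 185 (1.65-fold lower, -0.73 ± 0.16, adjusted p = 0.0403). Dnajc14, an ER membrane J protein, stood at 12.9 and 9.76 and then at 26.5 and 29.2 (2.45-fold higher, 1.23 ± 0.24, adjusted p = 0.0299). Dnajc24, an enzyme cofactor in making diphthamide on elongation factor 2, stood at 15.5 and 10.2 and then at 31.1 and 28.0 (2.30-fold higher, 1.17 ± 0.27, adjusted p = 0.0407). Dnajc2 and Dnajc21 were higher in replicate 2 on each day, and the days still did not overlap. Dnajc19 and Dnajc24 did not pass under quantile normalization or without the mean-variance trend, and Dnajc19 also not with globin and mitochondrially encoded genes removed (adjusted p = 0.0534). Dnajc12, named after its values were seen, stood at 2.20 and 0.794 on day 0 and at 1.86 and 15.1 on day 5, so its log2 difference of 1.50 ± 0.86 rests on day 5 replicate 2 (adjusted p = 0.252). It is the upper end of the 20 class C genes that did not pass, whose lower end is Dnajc7 at -0.68.

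Small heat shock proteins were scarce in these cells: 2 of 8 were tested and 5 were listed at 0 in all libraries. Hspb6, called Hsp20, stood at 5.76 and 5.49 FPKM on day 0 and at 2.00 and 0.779 on day 5 (4.06-fold lower, -1.52 ± 0.37, adjusted p = 0.0479). That call was lost under 3 of the 6 alternatives that keep all libraries and a filter. Hspb11, which carries the family name but is the intraflagellar transport protein IFT25, stood at 28.5 and 28.8 and then at 15.8 and 27.6, so only day 5 replicate 1 was clearly lower (adjusted p = 0.333). Hspb1, or Hsp27, was seen in day 5 replicate 1 alone, at 2.43. Sdf2l1, an ER partner of Dnajb11, went from 171 and 157 to 55.9 and 93.2 (2.20-fold lower, -1.17 ± 0.27, adjusted p = 0.0427), a call lost under 4 of those alternatives. Hsf1, the factor that binds the heat shock element, stood at 23.8 and 23.0 and then at 15.9 and 12.6 (1.64-fold lower, -0.69 ± 0.22), which did not pass (adjusted p = 0.0846).

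Genes that work with these chaperones, from lists of 80 genes in all, were counted in the same way: of 78 tested, 17 were lower, 3 higher and 58 not called, with a median of -0.26. These counts, and those of the single lists, stand beside 7.81% lower and 10.7% higher over all tested genes, and 21.2% lower over those of at least 100 FPKM. The lists of exchange factors, CCT partners and mitochondrial genes, with 1 or 2 calls each, lie near that background. Of the 18 Hsp90 co-chaperones 7 fell and 1 rose, with a median of -0.60. Ppid, a prolyl isomerase, went from 464 and 614 FPKM to 144 and 159 (-1.81 ± 0.20, adjusted p = 0.0110), Ptges3, the co-chaperone p23, from 457 and 701 to 171 and 229 (-1.51 ± 0.27, adjusted p = 0.0267), and Nudc from 299.7 and 335 to 135 and 134 (-1.23 ± 0.16, adjusted p = 0.0140). Of 12 Hsp70 exchange factors and cofactors 1 fell, St13 or Hip, from 232 and 230.2 to 74.3 and 135 (adjusted p = 0.0495). Of 12 prefoldin and CCT partner genes 11 were tested and 1 fell, Pfdn4, from 103 and 113 to 54.5 and 68.2 (adjusted p = 0.0427).

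The ER list, of folding enzymes and stress sensors, had 21 tested genes, of which 6 fell and 2 rose. Ero1l, the oxidase that feeds disulfide formation, went from 129 and 75.6 FPKM to 32.4 and 30.2 (-1.63 ± 0.29, adjusted p = 0.0252), and Pdia4, a disulfide isomerase, from 87.7 and 93.7 to 40.2 and 39.7 (adjusted p = 0.0168). Sdf2, the close relative of Sdf2l1, moved the other way, from 30.7 and 17.8 to 70.9 and 56.3 (1.39 ± 0.30, adjusted p = 0.0381). Of 13 mitochondrial protein quality genes 2 fell: Htra2, an intermembrane space protease, from 45.1 and 36.2 to 19.7 and 18.0 (adjusted p = 0.0315), and Clpp, the matrix protease, from 49.3 and 40.0 to 25.9 and 20.4 (adjusted p = 0.0465). Of the other heat shock factors and their binding protein, 3 were tested and 0 passed in limma. Hsbp1, the most abundant of them, stood at 92.5 and 102 on day 0 and at 119 and 124 on day 5 (0.32, adjusted p = 0.202).

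The labelled cell type was checked on marker genes. Of 10 erythroid genes 8 rose and 0 fell by limma, with Hba-a1, an alpha globin, at 426.5 and 279.5 FPKM on day 0 and at 17923 and 14670 on day 5. The 8 include Slc4a1, which passed the minimum through day 5 alone (0.370 and 0.156 FPKM, then 5.03 and 4.16), so its call adds nothing. Of 10 markers of fibroblast, lymphoid, epithelial, endothelial and macrophage cells 6 were listed at 0 in all libraries, and the list summed to 1.42 and 0.559 on day 0 and to 1.01 and 1.77 on day 5, all of the last from Pecam1. The erythroid genes summed to 1936 and 1372 on day 0 and to 30656 and 26064 on day 5. With 21 globin and mitochondrially encoded genes removed and the rest rescaled, 16 members were lower and 6 higher, where 6.44% and 13.8% of all tested genes were. Library totals lay between 758150 and 787494 FPKM, and 10227 to 10601 genes reached 1 FPKM. The number of reads is unknown from such values. With 2 libraries a day the calls depend on all 4 libraries: without any 1 of them limma called 0 members lower or higher. Over all 10736 genes it then called 0 in 3 of these 4 settings and 13 (0.121%) without day 5 replicate 2, so nearly every call in the table was lost with those of the members. The median log2 difference of the tested members ranged from -0.46 to -0.35 over these settings, against 0.11 to 0.19 over all tested genes. With all 4 libraries, 30 members were lower and 6 higher at an unadjusted limma p under 0.05, where 38.6% of all tested genes passed. All 26 called members kept their direction whichever library was left out, which was fixed in advance because their days did not overlap. Of the 26, 13 passed under each of the 6 alternatives that keep all libraries and a filter, among them Hspe1, Hspd1, Hspa9, Hspa8, Hsp90aa1, Cct3, Tcp1, Dnajc2, Dnaja4 and Dnajb2. Hspa12b passed the 5 that gave it a value. Without any filter on low FPKM 2 of 72 members passed, Dnajb2 and Hspa12b, where 1.56% of 15168 genes did. Hspa12b was seen on day 0 alone, as given above.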

How the data were processed

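The authors deposited 1 table of FPKM for the 4 RNA libraries. Per the submitters' processing notes, Bowtie was used with the build mm9, and no quantifier is named. How reads shared by similar genes were assigned is therefore not stated. FPKM hold no read counts, so depth is unknown and no counting interval can be given. Sample titles gave the day and the replicate number. The 10736 of 26599 genes that reached 1 FPKM in 2 or more libraries were fitted with limma 3.58.1 in R 4.3.3 on log2(FPKM + 1), with an eBayes trend and Benjamini-Hochberg adjustment over all of them, at a threshold of 0.05. The fit has 2 residual degrees of freedom. Standard errors and p-values use variances that eBayes moves toward the trend over all tested genes. Log2 differences understate changes of low genes, whereas folds are ratios of mean FPKM. Tested on simulated data for this comparison (10736 genes), the fit found 25 of 100 genes changed by 1 and 97 of 100 changed by 2 on the log2 scale, with 7 false calls. Only these genes, all above the median level, were changed there. In the data 18.5% of genes passed, so the shares found need not hold for the members.

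Members and lists were chosen with earlier results of these data known, and the ER stress element after values were seen. Named in full are called members (up to 6 per family), all CCT subunits, Hsp90, Hspd1, Hspe1, Hsph1, Hsf1, Sdf2l1, the 2 most abundant genes per family, and from each partner list the 3 called genes with the largest change, or else the most abundant. The partner lists hold Hsp90 co-chaperones, Hsp70 exchange factors, prefoldin and CCT partners, ER folding genes, mitochondrial protein quality genes and heat shock factors. A list of 2 symbols of the erythroid chaperone was not matched and is not analysed here. Alternatives were another pseudocount, other filters, quantile normalization, removal of globin and mitochondrially encoded genes, a replicate block, no trend and each library left out. Other processed files give mm9 regions, and no mm9 annotation was used here, so regions at member promoters were planned and not analysed. Protein sequences were not analysed.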

Additional observations from a re-analysis of the deposited data

How the results depend on the processing

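With all libraries and a filter kept, members lower and higher numbered 21 and 5, and 18 and 4 with a pseudocount of 0.1, 21 and 6 with a filter of 5 FPKM, 14 and 3 with quantile normalization, 16 and 6 without globin and mitochondrially encoded genes, and 13 and 4 without the trend. Partner genes numbered 17 and 3, and respectively 13 and 3, 17 and 5, 9 and 3, 11 and 6, and 7 and 0 (11 higher at an unadjusted p under 0.05). Over all genes tested, the share lower was 5.64% to 10.3% and the share higher 7.58% to 13.9% in these alternatives. With no filter limma called 1 and 1 members and 2 and 0 partner genes (8 higher unadjusted). With each library left out in turn, no member or partner gene was called in either direction. In that setting the lone library is assumed to vary like the other day's pair, with 1 residual degree of freedom. The replicate block gave 19 and 4 members and 14 and 5 partner genes. Replicate numbers are shared by label only, and deviations of same-numbered libraries correlated at 0.048 across genes. Under the block Hsp90ab1 (adjusted p = 0.0503), Hsp90b1 (0.0507), Dnajb4 and Hspb6 did not pass and Cct5 did (0.0493). Of the 26 called members 22, 25, 17, 21, 16 and 22 remained called in the 6 alternatives that keep all libraries and a filter, in the order pseudocount, filter of 5 FPKM (which dropped Hspa12b), quantile, removal, no trend and block. None of the 26 called members changed sign in any setting. With a library left out this was fixed in advance, as their days did not overlap. Of the 40 tested members that had not passed, 12 changed sign in at least 1 setting, 8 of them with a library left out. Those named with values here were as follows. Dnajb9 went from 0.28 to -0.03 with quantile normalization and ranged from -0.38 (without day 5 replicate 2) to 0.93 over the left-out libraries. Dnajc3 went from 0.21 to -0.02 with quantile normalization. The main entry of Hspa14 went from -0.11 to 0.02 with quantile normalization, to 0.01 with the removal, and ranged from -0.30 to 0.09 (without day 0 replicate 1) over the left-out libraries. Causes were not tested. Regions at member promoters and their alternatives were not run. The p-values rest on the spread of 2 libraries a day, moderated with that of all tested genes. Low FPKM carry an unknown counting error.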

Other observations

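Several scarce or mid-level members not described above had both day 5 libraries on 1 side of day 0 without passing limma's test, and were chosen after their values were seen. Dnajc18 stood at 5.05 and 4.47 FPKM on day 0 and at 9.87 and 11.0 on day 5 (0.99 ± 0.26 on the log2 scale, adjusted p = 0.0538), and passed with a filter of 5 FPKM (0.0467), with globin and mitochondrially encoded genes removed (0.0415) and without the trend (0.0450). Dnajc16 stood at 1.74 and 2.05 and then at 3.00 and 5.39 (adjusted p = 0.167). Dnajc13, known for endosome traffic, stood at 21.5 and 16.1 and then at 27.6 and 28.4 (adjusted p = 0.133). In the other direction, Dnaja3, a mitochondrial J protein, stood at 56.9 and 52.9 and then at 40.4 and 32.9 (adjusted p = 0.0893), Dnajc11, a mitochondrial membrane J protein, at 54.9 and 46.2 and then at 36.1 and 27.6 (adjusted p = 0.0890), and Dnajc7, a co-chaperone that binds both Hsp70 and Hsp90, at 97.1 and 85.0 and then at 67.8 and 46.8 (adjusted p = 0.0943).

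Dnajc3, an ER J protein that holds the ER stress element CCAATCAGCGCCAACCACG 105 to 87 bases before its start, stood at 17.0 and 15.4 FPKM and then at 18.2 and 19.4 (adjusted p = 0.500). The 3 members with that element thus had log2 differences of -0.74 (Hsp90b1), -0.52 (Hspa5) and 0.21 (Dnajc3). Stub1, a ubiquitin ligase that works with Hsp70 and Hsp90 and the co-chaperone that rose, stood at 37.9 and 32.8 on day 0 and at 71.7 and 63.4 on day 5 (0.92 ± 0.18, adjusted p = 0.0327). Syvn1, a ubiquitin ligase of ER-associated degradation, rose from 17.4 and 27.5 to 50.8 and 49.0 (1.15 ± 0.26, adjusted p = 0.0408).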
